A study of Homo sapiens with 8 samples.

Results

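The genes described here encode subunits of the nuclear RNA polymerases and proteins that assemble ribosomes. They were chosen by gene symbol: the families POLR1 to POLR3, NOP, NOL, UTP, RRP, NOC2L to NOC4L, GTF3C and GNL, 5 WDR genes (WDR12, WDR36, WDR43, WDR74 and WDR75), and BOP1, NCL, NPM1, FBL and BYSL. POLR3G and RRP1B, which both fell in the knockdown, match these families but were left out by the choice. The counts below therefore leave out 2 genes known to have passed the test. Matching found 51 genes, held by 61 rows of the table, among 14812 named genes. Of these, 50 were bright enough to be tested, among 11109 tested genes. No row with a single symbol matched GTF3C, NPM1, POLR1A, POLR2A or POLR3A, which were not analysed here. Rows that carry several symbols were not used.

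The study used 8 arrays and 4 human myeloma lines that carry the t(4;14) translocation: KMS11, KMS18, KMS34 and OPM2. Each line gave 1 control array and 1 array with knockdown of MMSET I, a short product of NSD2, which encodes a histone methyltransferase, so both groups held 4 arrays. Lentivirus was given to all 8 cultures with polybrene at 8 µg/mL, and RNA was taken 48 h after the virus was removed. In the series text the shRNA treatment lasts 72 h and KMS11 is the only line named, and neither the shRNA nor the control construct was given in the sources used here. The 4 lines are the replicates of the knockdown, and within a line each condition is a single culture. Values are the deposited linear intensities of a gene's probes. Differences are in log2 units, knockdown minus control, so that a log2 difference of 1 is a doubling.

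Ribosomes are built in the nucleolus. RNA polymerase I transcribes the precursor of most ribosomal RNA, polymerase III transcribes 5S ribosomal RNA and tRNAs, and polymerase II transcribes the genes of ribosomal proteins and assembly factors. Small nucleolar ribonucleoproteins (snoRNPs) modify the precursor, the small subunit processome and later factors shape the small subunit, and other factors shape the large one. Growing and secretory cells, such as plasma cells and their malignant counterparts, make ribosomes at a high rate.

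The labels were checked first. The row of NSD2 differed by -0.18 (standard error 0.064), lower in 4 of 4 lines, with a limma adjusted p of 0.472. An exact two-sided permutation test within lines gave p = 0.125, the smallest that 4 lines allow. Which isoforms the probes of this row read was not given in the sources used here. GLO1, which the series title names, fell by 0.76 (limma adjusted p = 0.00142). All 8 named plasma cell markers of a list of 13 lay above the brightness limit, and their summed intensity was 8197 to 10954 in control and 7910.5 to 11345 in knockdown arrays. The 6 named T and NK cell markers of a list of 11 also lay above the limit. Their summed intensity was 466 to 591 in control and 485 to 607 in knockdown arrays. Summed myeloid markers (8 of 10 named, with CD14, LYZ and S100A8 under the limit) were 1087 to 1238 in control and 1119 to 1364 in knockdown arrays, and stromal and endothelial markers (4 of 9 named, with DCN, LUM and KDR under the limit) 148 to 155 in control and 142 to 159.6 in knockdown arrays. The quartiles of the 8 arrays nearly coincide, so a change of total RNA per cell would not be seen, and in bulk RNA fewer expressing cells and less RNA per cell cannot be told apart.

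The stretches around the gene starts were read for motifs, which the choice by symbol did not use. RefSeq windows on GRCh38.p14, from 250 bases before to 50 bases after the gene start, were matched for 43 of the 51 genes. The E-box CACGTG, whose letters read the same on both strands and which transcription factors of the MYC and MAX family bind, lay in the windows of 15 of 43 (34.9%). It lay in a window of 12.3% of the 8530 tested genes that have one, and of 8.77% of all 27305 genes of the table. The ETS core (CGGAAG or, on the other strand, CTTCCG) was in 22 of 43 (51.2%) against 34.3% of tested genes. The GC box (GGGCGG or CCGCCC) was in 31 of 43 (72.1%), close to the 73.2% of tested genes. The CCAAT box (CCAAT or ATTGG) was in 13 of 43 (30.2%) against 41.6%, and a TATA box (TATAAA or TTTATA) in 1 of 43 (2.33%), NOP53, against 8.6%. Each motif was counted on its own, also where it shares bases with another. These are shares of letters, with no test and no measurement of binding.

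**Figure D1:**
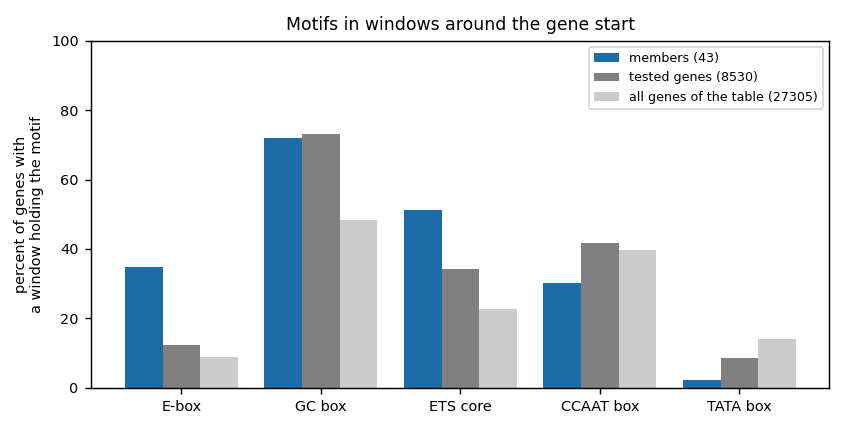
Percent of genes whose window around the gene start holds each motif, for 43 of the chosen genes, the 8530 tested genes and all 27305 genes of the RefSeq table; the E-box is in 34.9% of the chosen genes and 12.3% of tested genes, and the GC box in 72.1% and 73.2%.

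The 15 windows hold 17 E-boxes, since NOP10 and UTP18 have 2 each, and 11 of the 17 begin after the first base of the gene. Up to 12 bases on each side are printed for 7 genes from different steps of the pathway, 5′ to 3′ on the gene's strand, with the E-box in capitals. The genes are BYSL and WDR43 of small subunit assembly, NOP2 and NOC3L of large subunit assembly, FBL and NOP10 of the snoRNPs, and the polymerase III subunit gene POLR3E.
BYSL (chr6:41921515-41921544, +): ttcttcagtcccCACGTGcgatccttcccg
WDR43 (chr2:28894658-28894687, +): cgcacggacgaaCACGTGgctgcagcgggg
NOP2 (chr12:6568242-6568268, -): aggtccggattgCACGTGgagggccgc
NOC3L (chr10:94362903-94362932, -): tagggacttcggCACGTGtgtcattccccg
FBL (chr19:39846356-39846385, -): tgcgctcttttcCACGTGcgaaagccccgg
NOP10 (chr15:34343130-34343159, -): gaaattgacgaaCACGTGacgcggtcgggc
POLR3E (chr16:22297396-22297425, +): cccgctccccccCACGTGtccgccggagtt
Outside the 6 letters the stretches differ, and the E-box begins 28 bases after the first base of the gene in BYSL, 6 in FBL and 3 in WDR43, and 11 bases before it in NOP10. The 15 genes with an E-box had a median knockdown difference of -0.041 and the 27 tested genes with a window but no E-box 0.011. In OPM2, 11 of 15 and 22 of 27 were below 0. No window was used for BOP1, NOC2LP2, NOL10, NOLC1, NOP58, POLR2G, RRP12 and RRP7BP.

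The first comparison asked how the knockdown moved these genes across the lines. None of the 50 tested genes passed in either direction. limma called 0 lower and 0 higher at an adjusted p under 0.05, where it called 0.099% of all tested genes lower and 0.018% higher. At an unadjusted p under 0.05, 0 of 50 were lower and 1 was higher, POLR3GL, against 4.15% and 4.26% of all tested genes. The 95% interval of the difference lay within 1.2-fold of no change for 48 of 50 genes (77.5% of all tested genes), the exceptions being POLR3GL and NOL4L-DT, and within 1.5-fold for 50 of 50 (99.9%). Standard errors ran from 0.060 to 0.10, with a median of 0.066. The estimated difference was below 0 for 30 of 50 (51.6% of all tested genes), and the median was -0.035 against -0.0033 over all tested genes. Without OPM2 the median was -0.00069. With POLR3G and RRP1B counted, 2 genes would be called lower. The number of arrays limits the precision.

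**Figure D2:**
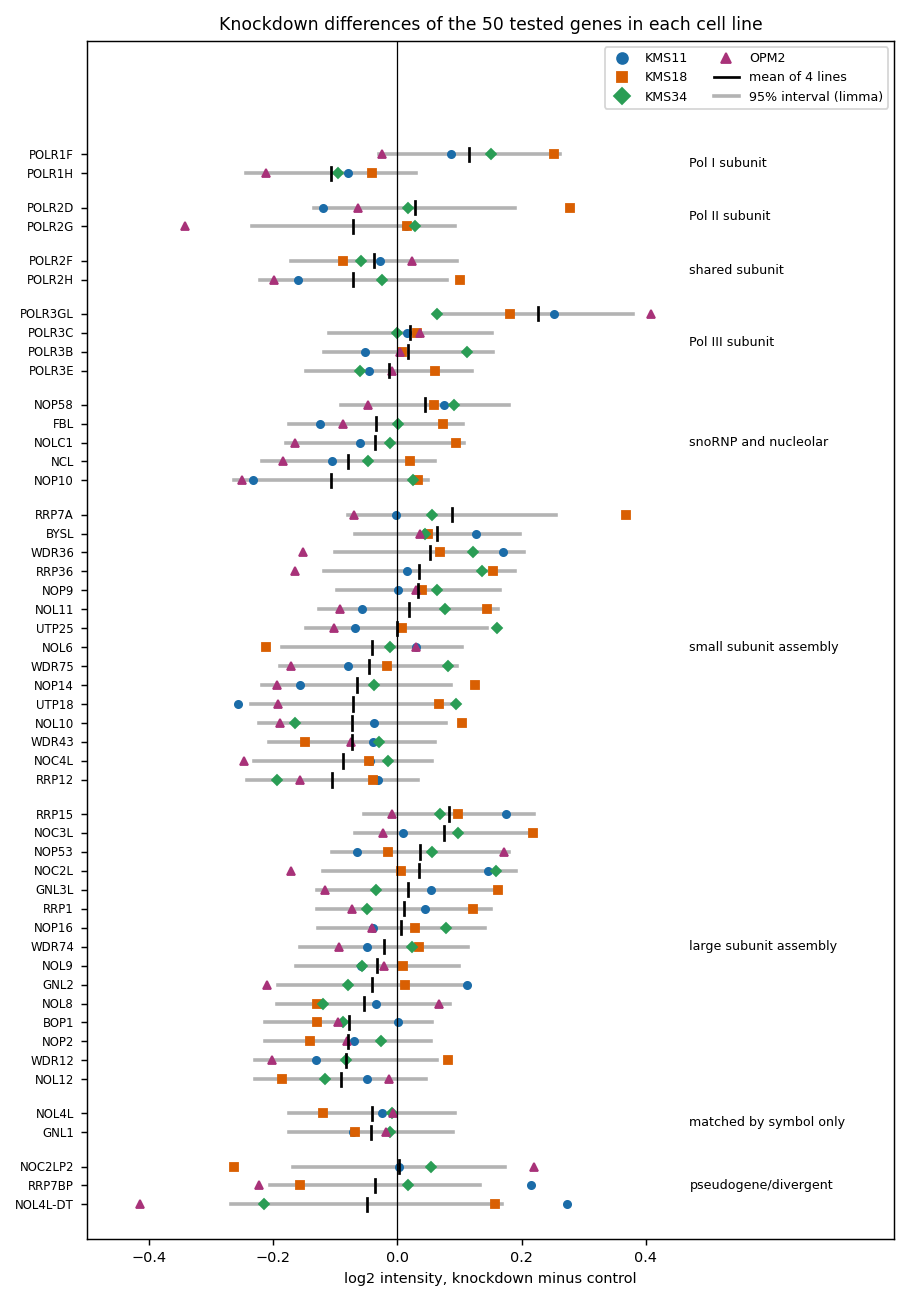
Knockdown minus control difference in log2 intensity (horizontal axis) for each of the 50 tested genes, grouped by role; coloured points are the 4 cell lines, black ticks the mean and grey bars the 95% limma interval. The interval of POLR3GL alone leaves out 0, and the OPM2 points lie below 0 for 40 of 50 genes.

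Among the polymerase subunits, 5 of 10 estimates were below 0 and 5 above, with a median of 0.0021. POLR3GL encodes a polymerase III subunit that is the close relative of POLR3G, and forms of the enzyme contain either of them. Its intensity was 122, 121, 88.6 and 89.6 on the control arrays of KMS11, KMS18, KMS34 and OPM2 and 146, 137, 92.7 and 119 on their knockdown arrays. Each knockdown array was above the control array of its line, while the groups overlapped across lines, with means of 105 ± 18.8 and 124 ± 23.4 (SD, n = 4). The mean difference was 0.23 (standard error 0.07, 95% interval 0.074 to 0.38), and the line values were 0.25, 0.18, 0.065 and 0.41 in the order KMS11, KMS18, KMS34, OPM2. Its unadjusted p was 0.00714 and its limma adjusted p 0.417, so it did not pass. Without OPM2 the difference was 0.17 (adjusted p = 0.644) and no gene was left at an unadjusted p under 0.05. Without the pairing by line, the adjusted p of POLR3GL was 1.

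POLR3G itself read 267, 285, 222 and 164 on the control arrays of KMS11, KMS18, KMS34 and OPM2 and 177, 200.3, 169 and 107 on their knockdown arrays. It was lower in the knockdown array of 4 of 4 lines, and its difference of -0.53 passed, with a limma adjusted p of 0.0147. The intensities of POLR3GL and POLR3G come from different probes and are not set against each other. Whether the differences of the 2 genes are related was not tested.

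**Figure D3:**
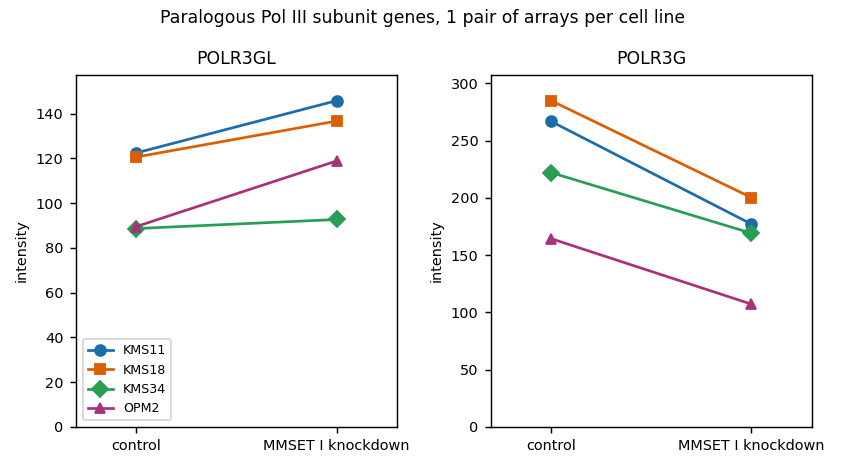
Intensity of POLR3GL and POLR3G on the control and knockdown array of each cell line, joined by line, on axes that start at 0. POLR3GL was higher in the knockdown array of 4 of 4 lines without passing the adjusted test, and POLR3G was lower in 4 of 4 and passed it.

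The 250 bases before the start of POLR3GL are shown because it is the member with the smallest p, with its motif letters in capitals: 1 GC box and 2 CCAAT boxes, 1 of them on the other strand.
POLR3GL (chr1:145964440-145964689, +): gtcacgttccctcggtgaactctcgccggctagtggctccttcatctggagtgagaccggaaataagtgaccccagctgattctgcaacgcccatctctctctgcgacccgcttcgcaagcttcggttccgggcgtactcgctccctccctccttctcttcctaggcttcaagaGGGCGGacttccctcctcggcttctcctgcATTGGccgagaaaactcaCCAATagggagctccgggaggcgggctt
No E-box, ETS core or TATA box letters are in this stretch.

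The other polymerase III subunits stayed close to 0. POLR3C, part of the subcomplex that serves initiation, read 826, 914, 689 and 832 on the control arrays of KMS11, KMS18, KMS34 and OPM2 and 835, 935, 688 and 853 on their knockdown arrays. The 2 conditions differ little beside the spread over lines, and the difference was 0.021 (95% interval -0.11 to 0.15). POLR3B, the second-largest subunit, differed by 0.018 (-0.12 to 0.15) and POLR3E by -0.013 (-0.15 to 0.12).

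The polymerase I subunits lay on opposite sides of 0. POLR1F, a subunit that takes part in initiation, read 189, 99.6, 183 and 155 on the control arrays of KMS11, KMS18, KMS34 and OPM2 and 200.4, 119, 203 and 152 on their knockdown arrays. Its difference was 0.12 (standard error 0.067, limma adjusted p = 0.679), above 0 in 3 lines and -0.025 in OPM2. POLR1H, the small subunit that serves RNA cleavage, read 116, 115, 106 and 97.3 on the control arrays and 109.7, 112, 98.9 and 84.0 on the knockdown arrays, in the same order of lines. It was below its control in 4 of 4 lines, most in OPM2 (-0.21), with a mean of -0.11 (limma adjusted p = 0.684). Neither gene passed, and in both the knockdown and control ranges overlapped.

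Of the polymerase II subunits, POLR2G pairs with POLR2D in a stalk on the enzyme. POLR2G read 127, 195, 213 and 191 on the control arrays of KMS11, KMS18, KMS34 and OPM2 and 128, 197, 218 and 151 on their knockdown arrays. KMS11, KMS18 and KMS34 hardly differed between conditions, while OPM2 differed by -0.34, and the mean was -0.071 (limma adjusted p = 0.83). Without OPM2 it was 0.019. POLR2D read 349.6, 318, 411 and 405 on the control arrays and 322, 385, 416 and 388 on the knockdown arrays, in the same order of lines. KMS18 stood out there, at 0.28, against -0.12 in KMS11, and the mean was 0.028 (adjusted p = 0.947). The subunits shared by all polymerases, POLR2F and POLR2H, differed by -0.037 (95% interval -0.17 to 0.096) and -0.071 (-0.22 to 0.080).

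The nucleolar and assembly genes numbered 35, with 21 estimates below 0, 14 above and a median of -0.034. The 5 snoRNP and nucleolar proteins had 4 below 0. NOP10, a component of the snoRNPs that make pseudouridine, had the largest mean difference of them. It read 862, 683, 933 and 667 on the control arrays of KMS11, KMS18, KMS34 and OPM2 and 733, 699, 949.8 and 560.3 on their knockdown arrays. The knockdown arrays of KMS11 and OPM2 were below their controls, by -0.23 and -0.25, and those of KMS18 and KMS34 slightly above, for a mean of -0.11 (standard error 0.072, limma adjusted p = 0.729). FBL, the methyltransferase of the box C/D snoRNPs, read 2586, 2196, 3581 and 2668 on the control arrays and 2372, 2311, 3583 and 2511 on the knockdown arrays, in the same order of lines. Its ranges overlapped almost wholly, and the difference was -0.034 (adjusted p = 0.918). NCL, nucleolin, differed by -0.079 (-0.22 to 0.060), NOLC1, a chaperone of snoRNPs, by -0.035 (-0.18 to 0.11) and NOP58, a core box C/D protein, by 0.044 (-0.091 to 0.18).

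Small subunit assembly had 9 of 15 estimates below 0 and a median of -0.041. RRP12, which takes part in export of the pre-ribosome, read 304, 147, 702 and 265 on the control arrays of KMS11, KMS18, KMS34 and OPM2 and 298, 143, 614 and 238 on their knockdown arrays. Each knockdown array was below its own control, with a mean of -0.10 (standard error 0.063, limma adjusted p = 0.696), but the lines lie much further apart than the conditions. NOC4L differed by -0.088 (adjusted p = 0.757) and was lower in 4 of 4 lines, with -0.25 in OPM2 and between -0.045 and -0.016 in the others. BYSL, bystin, a factor of late small subunit maturation, read 236, 223, 238 and 191 on the control arrays and 257, 231, 245 and 195 on the knockdown arrays, in the same order of lines. It was higher in 4 of 4 lines, by 0.064 on average (adjusted p = 0.807). NOP9 was also above 0 in 4 of 4 lines, at 0.034 (adjusted p = 0.913).

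RRP7A had the highest estimate of this group, 0.088 (adjusted p = 0.796), which came mostly from KMS18, where it was 0.37. Without KMS18 it was -0.0055. WDR36, a processome protein, differed by 0.052 (adjusted p = 0.876), above 0 in 3 lines and -0.15 in OPM2. UTP18, also of the processome, was split the other way, with -0.26 in KMS11, -0.19 in OPM2 and values above 0 in KMS18 and KMS34. NOL6 differed by -0.041, with -0.21 in KMS18, and UTP25 by -0.0010, with 0.16 in KMS34. These are genes whose lines disagree in sign, and none of them passed. WDR75, WDR43 and RRP36 differed by -0.046, -0.073 and 0.035, and WDR43 was below 0 in 4 of 4 lines. The remaining genes NOL10, NOL11 and NOP14 lay between -0.072 and 0.018.

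Large subunit assembly had 8 of 15 estimates below 0 and a median of -0.021. The PeBoW complex, which processes the large subunit RNA, includes BOP1 and WDR12. BOP1 read 248, 520.4, 349 and 203 on the control arrays of KMS11, KMS18, KMS34 and OPM2 and 248, 476, 329 and 189 on their knockdown arrays. Its difference was -0.078 (adjusted p = 0.77), with no difference in KMS11 and lower values in the other lines, and a further row of BOP1 gave -0.040. WDR12 differed by -0.083 (adjusted p = 0.773) and was above 0 in KMS18 alone. NOP2, a ribosomal RNA methyltransferase, was below 0 in 4 of 4 lines at -0.079 (adjusted p = 0.767), and NOL12 likewise at -0.091 (adjusted p = 0.735).

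On the other side, RRP15 differed by 0.083 (adjusted p = 0.762) and NOC3L by 0.075 (adjusted p = 0.795), each above 0 in 3 lines and at -0.0089 and -0.024 in OPM2. NOC2L, which encodes a partner of NOC3L in pre-ribosomes, had 0.15 in KMS11, 0.16 in KMS34 and -0.17 in OPM2, for a mean of 0.035. The nucleolar GTPases GNL2 and GNL3L differed by -0.041 and 0.016, and both were lowest in OPM2, at -0.21 and -0.12. The other 6 genes (NOL8, NOL9, NOP16, NOP53, RRP1 and WDR74) lay between -0.054 and 0.037.

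A few genes carry a matching symbol without a settled place in ribosome assembly. GNL1 and NOL4L were slightly below 0 in 4 of 4 lines, at -0.042 and -0.040. GNL1 is held by 8 rows. The 3 brightest have the same mean intensity of 148.8 and the same difference, and the row used is among them. NOL4 had intensities of 39.2 to 47.9 over the 8 arrays, with a mean under the brightness limit of 46.7, and was not tested. The pseudogenes NOC2LP2 and RRP7BP and the divergent transcript NOL4L-DT differed by 0.0032, -0.036 and -0.049. A pseudogene's probes can pick up RNA of the parent gene, so the values of NOC2LP2 and RRP7BP are uncertain. The value of NOL4L-DT is uncertain too, since its intensities were not far above the brightness limit. NOL4L-DT read 68.2, 74.5, 83.9 and 94.6 on the control arrays of KMS11, KMS18, KMS34 and OPM2 and 82.4, 83.1, 72.3 and 71.0 on their knockdown arrays. It was higher in KMS11 and KMS18 and lower in KMS34 and OPM2 and had the largest standard error of all 50 genes, 0.10.

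Of the 50 genes, 8 were below 0 in 4 of 4 lines (8.76% of all tested genes) and 3 above 0 in 4 of 4 (8.29%). The 8 were GNL1, NOC4L, NOL12, NOL4L, NOP2, POLR1H, RRP12 and WDR43, and the 3 were BYSL, NOP9 and POLR3GL. The count of 8 became 4 after quantile normalization. Over the 3 remaining lines it was 16 without KMS18 and 9 to 10 without another line. The count above 0 was 11 without OPM2 and 4 without any other line. Agreement over 3 lines is a looser rule than over 4, and the shares of all tested genes under it were not counted. None of these genes passed the limma test.

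The second comparison set the knockdown array against the control array within each line, where there is no replicate and hence no test. The lines differed in the direction in which the genes leaned. In OPM2, 40 of 50 genes were below 0, against 49.4% of all tested genes, with a median of -0.084 against 0.0024. In KMS18, 16 of 50 were below 0, against 49.1%, with a median of 0.033 against 0.0030. In KMS11, 30 of 50 were below 0 (50.5% of all tested genes) and in KMS34 25 of 50 (53.4%), with medians of -0.037 and 0.00018. Differences of the 50 genes were small everywhere. None reached 1.5-fold in any line, where the shares of all tested genes lower and higher by that much were 0.243% and 0.27% in KMS11, 0.081% and 0.045% in KMS18, 0.135% and 0.117% in KMS34 and 0.099% and 0.09% in OPM2. The choice left out POLR3G, at -0.59 in KMS11 and -0.62 in OPM2, and RRP1B, at -0.59 in OPM2, each past 1.5-fold. The absence of such genes here thus depends on the choice. Whether the lean of a line is larger than that between 2 cultures of the same line was not tested.

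In OPM2, the lower values were spread over the assembly steps. Of the 35 nucleolar and assembly genes, 30 were below 0, with a median of -0.094. That comprised 5 of 5 snoRNP and nucleolar genes (median -0.16), 12 of 15 of small subunit assembly (median -0.15) and 13 of 15 of large subunit assembly (median -0.074). The polymerase subunits had 6 of 10 below 0 and a median of -0.017. In KMS18, the same 5 snoRNP and nucleolar genes were all above 0, with a median of 0.059. NOP10, NCL and NOLC1 illustrate this, with -0.25, -0.18 and -0.16 in OPM2 and 0.033, 0.021 and 0.095 in KMS18.

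**Figure D4:**
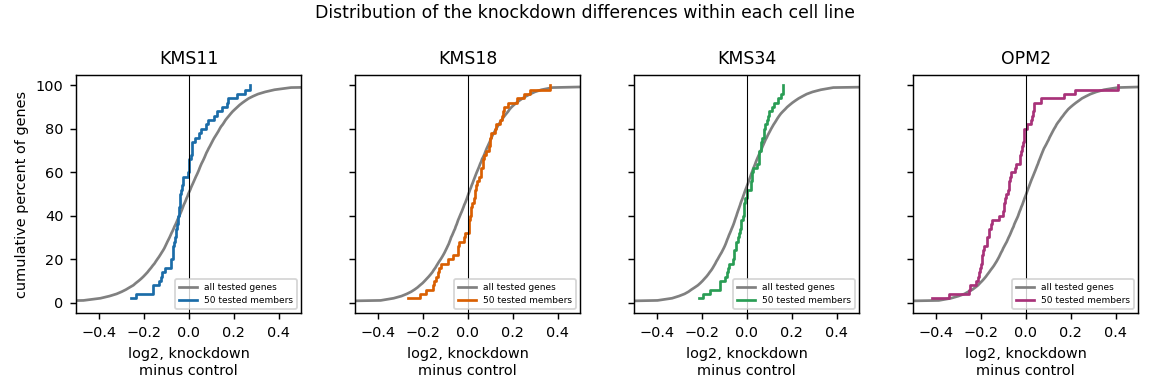
Cumulative percent of genes (vertical axis) by knockdown minus control log2 difference (horizontal axis) in each cell line, for the 50 tested genes (coloured steps) and all 11109 tested genes (grey). In OPM2 the steps lie to the left of the grey curve around 0, with 40 of 50 below 0, and in KMS18 16 of 50 are below 0.

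Single genes past 1.2-fold were counted among the 50. KMS11 had 0 lower and 1 higher, NOL4L-DT (6.99% and 6.19% of all tested genes). KMS18 had 1 lower, NOC2LP2, and 2 higher, RRP7A and POLR2D (4.37% and 4.82%). KMS34 had 0 in either direction (4.74% and 4.19%). OPM2 had 2 lower, NOL4L-DT and POLR2G, and 1 higher, POLR3GL (4.54% and 5.29%). Each of these counts is at or below 4% of the 50 genes and below the share of all tested genes in the same line and direction. POLR3G and RRP1B, left out by the choice, were more than 1.2-fold lower in 4 of 4 lines, between -0.62 and -0.34. They are part of the shares of all tested genes. The counts of lower genes thus depend on the choice, and no lack of such genes is read from them.

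The third comparison asked how the 4 lines differ in these genes, with each line's mean taken over its control and knockdown array. Most genes differed between lines, as most genes of the array did: 36 of 50 passed limma's F test at an adjusted p under 0.05, against 75.7% of all tested genes. Wide differences were fewer: 5 of 50 passed with line means at least 2-fold apart, against 18.8%. The median range of the line means was 0.43 log2 units, against 0.52 over all tested genes. A line is represented by 2 arrays, and the test takes the spread of the knockdown differences as error. Line and culture cannot be told apart.

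RRP12 had the widest range, 4.52-fold. With the array values given above, it was highest in KMS34, then KMS11, OPM2 and KMS18, and the arrays of a line did not overlap those of another. All neighbours in this order differed, the closest being KMS11 and OPM2 (limma adjusted p = 0.0286). RRP36, a factor of early precursor cleavage, spanned 2.84-fold. It read 747, 251, 503 and 700.0 on the control arrays of KMS11, KMS18, KMS34 and OPM2 and 755, 279, 553 and 625 on their knockdown arrays. KMS18 was lowest and KMS34 next, while KMS11 and OPM2 were not told apart (adjusted p = 0.136). BOP1 spanned 2.54-fold in another order, with KMS18 highest, then KMS34, KMS11 and OPM2, and all neighbours differed (closest pair KMS11 and OPM2, adjusted p = 0.00584).

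NOLC1 spanned 2.21-fold. It read 814, 532, 1219 and 858 on the control arrays of KMS11, KMS18, KMS34 and OPM2 and 781, 568, 1209 and 766 on their knockdown arrays. KMS34 stood above the other lines and KMS18 below them, and KMS11 and OPM2 were not told apart (limma adjusted p = 0.837). NOC3L, with a range of 2.04-fold, read 232, 152, 323 and 204 on the control arrays and 234, 176, 346 and 201 on the knockdown arrays, in the same order of lines. KMS34 was again highest and KMS18 lowest, with KMS11 and OPM2 not told apart (adjusted p = 0.0865). RRP12, RRP36, NOLC1 and NOC3L thus share KMS18 as the lowest line. Over all 50 genes KMS18 was lowest in 11 (25.5% of all tested genes). Without KMS18, 1 gene of the 50 kept line means at least 2-fold apart, and without KMS34 3 did. The shares of all tested genes with a line left out were not counted.

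**Figure D5:**
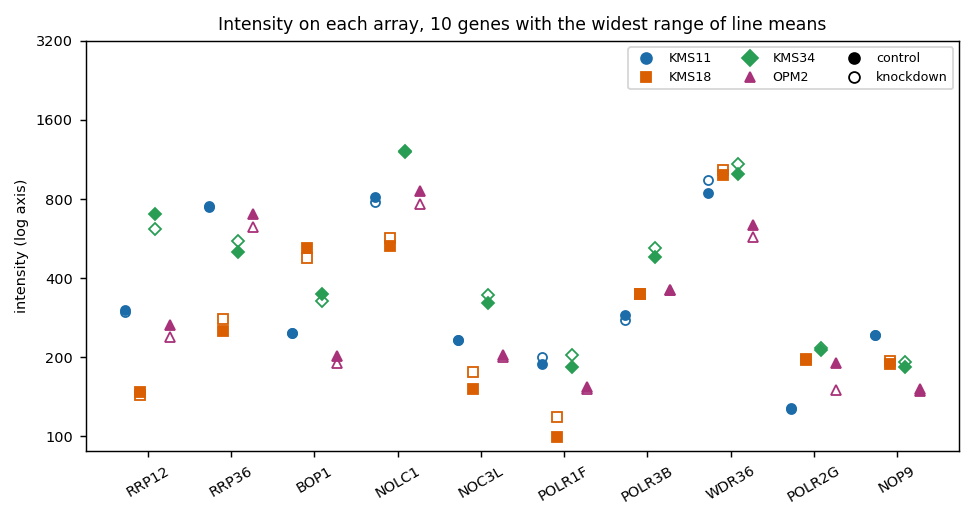
Intensity (log axis) on each of the 8 arrays for the 10 genes with the widest range of line means, with filled symbols for control and open symbols for knockdown arrays. KMS18 is lowest in RRP12, RRP36, NOLC1, NOC3L and POLR1F and highest in BOP1; levels are comparable within a gene and not between genes.

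The 250 bases before RRP36, a gene of wide range that has a window, are shown with its 2 ETS cores in capitals.
RRP36 (chr6:43021373-43021622, +): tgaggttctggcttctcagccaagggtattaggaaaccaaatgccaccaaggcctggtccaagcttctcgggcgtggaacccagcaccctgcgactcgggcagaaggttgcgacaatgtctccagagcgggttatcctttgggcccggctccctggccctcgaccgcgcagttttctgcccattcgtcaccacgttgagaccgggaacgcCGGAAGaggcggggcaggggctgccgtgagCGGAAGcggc
The letters of the other 4 motifs are not in this stretch.

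The next 5 by range were POLR1F (1.79-fold), POLR3B (1.76), WDR36 (1.72), POLR2G (1.69) and NOP9 (1.61). POLR1F was lowest in KMS18, and KMS11 and KMS34 were not told apart (limma adjusted p = 0.934). POLR3B read 289, 348, 480.4 and 359 on the control arrays of KMS11, KMS18, KMS34 and OPM2 and 278, 349, 519 and 360.0 on their knockdown arrays. It was highest in KMS34 and lowest in KMS11, with KMS18 and OPM2 not told apart (adjusted p = 0.744). WDR36 was lowest in OPM2, and its other neighbours, KMS34 with KMS18 (0.768) and KMS18 with KMS11 (0.143), had adjusted p-values above 0.05. POLR2G was lowest in KMS11, with KMS34 and KMS18 (0.302) and KMS18 and OPM2 (0.153) not separated. NOP9 was highest in KMS11 and lowest in OPM2, and KMS18 and KMS34 were not told apart (adjusted p = 0.75).

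At the other end, GNL2, NCL, NOL4L-DT, POLR2F and WDR43 had the narrowest ranges. WDR43, a processome protein, read 479, 526, 522 and 481 on the control arrays of KMS11, KMS18, KMS34 and OPM2 and 466, 474, 511 and 457 on their knockdown arrays, a range of 1.10-fold. NCL spanned 1.11-fold, POLR2F 1.11-fold, GNL2 1.11-fold and NOL4L-DT 1.09-fold. Across all arrays POLR2F read 62.1 to 71.8 and NOL4L-DT 68.2 to 94.6, not far above the brightness limit of 46.7. Whether such low intensities narrow the ranges of POLR2F and NOL4L-DT was not tested, so these ranges are not read as constant levels. None of the 10 polymerase subunits reached a 2-fold range, where 18.8% of all tested genes reached it and passed the F test. Of the 10, 7 passed the F test, against 75.7% of all tested genes. Among the assembly genes, 12 of 15 for the small subunit, 10 of 15 for the large subunit and 4 of 5 snoRNP and nucleolar genes passed. With so few genes per group, these counts are not read as differences from that share.

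The lines did not rank alike over these genes. KMS34 was the highest line for 19 of 50 genes (23.1% of all tested genes) and OPM2 the lowest for 22 of 50 (23.8%). In the limma test of that pair, 24 genes were higher in KMS34 and 5 in OPM2, where 26.8% and 23.1% of all tested genes were. KMS11 was above OPM2 in 19 genes and below in 8 (29.8% and 24.9%). KMS34 was above KMS18 in 13 and below in 4 (27.7% and 19.8%), and KMS11 above KMS34 in 8 and below in 15 (23.1% and 19.1%). KMS11 was above KMS18 in 11 and below in 7 (32.5% and 24%), and KMS18 above OPM2 in 11 and below in 10 (17.6% and 21.3%). The pairs share lines, so these counts are not independent of each other.

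The knockdown values of other genes of these pathways were read from the same fit. Of 110 other ribosome biogenesis factors, 86 had a row with a single symbol and were tested, with 0 called in either direction by limma. At an unadjusted p under 0.05, 6 were lower and 0 higher (4.15% and 4.26% of all tested genes). Estimates were below 0 for 57 and above for 29, with a median of -0.029. In OPM2, 68 of 86 were below 0, with a median of -0.11. In KMS18 it was 42 of 86. DIMT1, a ribosomal RNA dimethyltransferase, had the smallest p. It read 248, 209, 291 and 209.7 on the control arrays of KMS11, KMS18, KMS34 and OPM2 and 203, 193, 273 and 143 on their knockdown arrays. It was lower in 4 of 4 lines, by -0.26 on average (limma adjusted p = 0.417). EXOSC5, a subunit of the RNA exosome, differed by -0.16 (adjusted p = 0.562), and TEX10 and DDX49 had the smallest p on the other side, at 0.13 (adjusted p = 0.605) and 0.11 (adjusted p = 0.709).

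Of 22 other polymerase I and III transcription factors, 7 had a row with a single symbol and were tested. Among these 0 were called and 6 were below 0. TBP, the TATA-binding protein that serves all 3 polymerases, was at -0.13, -0.12, -0.097 and -0.12 in KMS11, KMS18, KMS34 and OPM2, a mean of -0.12 (limma adjusted p = 0.638). SSB, the La protein that binds the ends of polymerase III transcripts, differed by -0.083 (adjusted p = 0.798), and RRN3, an initiation factor of polymerase I, by 0.037 (adjusted p = 0.928). In OPM2, 7 of 7 were below 0. Of 36 polymerase II general transcription factors, 6 had a row with a single symbol and were tested, and 0 were called. Of these, 5 were below 0, with a median of -0.049, and in OPM2 3 of 6 were below 0. The factors not tested lacked such a row, and their brightness was not examined. RRP1B, the nucleolar gene left out by the choice, read 509, 346, 473 and 364 on the control arrays of KMS11, KMS18, KMS34 and OPM2 and 401, 266, 353 and 241 on their knockdown arrays. Its difference of -0.44 passed (limma adjusted p = 0.0422), and it was lower in 4 of 4 lines. RRP1, its relative among the tested genes, differed by 0.011 (95% interval -0.13 to 0.15).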

How the data were processed

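Total RNA of 8 cultures was hybridised as biotin-labelled cDNA to 1-colour GeneChip Human Gene 2.0 ST arrays, per the labels' protocols and the series text. The authors deposited intensity values, linear as judged from their range, for 44629 transcript clusters and used GeneSpring, per the series text. How background, scaling and probe summaries were handled is not given in the sources used here. The design had allowed for log2 or linear values, and log2 of the deposited values was taken.

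The platform annotation gave a single symbol to 15835 rows. Each of 14812 genes was represented by its brightest row (651 had several). The 28794 rows without a symbol or with several symbols were left out. Genes with a mean under the 25th percentile (intensity 46.7) were left out, 3703 in number. Raw probe signals were not used here, so no detection above background is stated.

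Tests used lmFit and eBayes of limma 3.58.1 (R 4.3.3) with cell line as a block, with Benjamini-Hochberg adjustment over 11109 genes. Lines pair the arrays by the labels. Arrays of the same line correlated at 0.991 to 0.993 and arrays of different lines at 0.880 to 0.915. As deviations from the mean of the 4 lines, control and knockdown of a line correlated at 0.925 to 0.932, and those of different lines at -0.135 at most. Taking deviations in itself lowers the correlation between lines. The code was tested on simulated data.

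The genes and lists were chosen with earlier results of these data known, so lists are described by counts and medians without a test. Named were, by rule, the 8 genes of smallest p in each direction, the widest and narrowest line ranges, the 2 largest differences per line and direction, the brightest and dimmest per role, and some genes by name. Marker lists and polymerase II factors are given as counts or sums. The alternatives were quantile normalization, median centring, other filters, the mean of a gene's rows, trend and robust eBayes, no block, a random block, an adjusted p under 0.1, leaving out each line, and 2 other choices of members added after the data were seen.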

Additional observations from a re-analysis of the deposited data

Results flagged for a closer look

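Of 150 sets of 4 values (control intensities, knockdown intensities and differences of the 50 tested genes), 7 held a value far from the other 3 by Dixon's ratio, where chance gives about 1 in 20, or 7.5 sets. In KMS34, the control intensity of NOC4L was 310.5, the others being 256 to 264, and the knockdown intensity of GNL1 was 177 (135 to 141). The control intensity of NOL8 in OPM2 was 149, against 227 to 246 in the other lines.

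Among the knockdown differences, POLR2G stood at -0.34 in OPM2 against 0.014 to 0.029 in the other lines, and NOC4L at -0.25 in OPM2 against -0.045 to -0.016. BYSL was at 0.13 in KMS11 (others 0.036 to 0.050) and NOL4L at -0.12 in KMS18 (others -0.025 to -0.0077).

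The divergent transcript NOL4L-DT differed in opposite directions by at least 1.2-fold, at -0.41 in OPM2 and 0.27 in KMS11. With 1 array per condition and line, the difference was not tested.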

How the results depend on the processing

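The absence of calls, the count of genes that differ between lines and the median difference kept their side under the alternative normalizations, filters, row choices and models. For 48 named genes, 378 of 381 such values kept their direction and call. The pseudogene NOC2LP2 turned to -0.0050 after quantile normalization and -0.0040 after median centring. Without the replicate block, 0 genes of the 50 were called lower and 0 higher, as with it, POLR3GL lost its unadjusted p under 0.05, and GLO1 (-0.76) lost its call. Counting POLR3G and RRP1B, an alternative chosen after seeing the data, gave 2 genes called lower. The F test counted 28 (without OPM2) to 37 (without KMS18) genes with a line left out, and the median difference ran from -0.033 to -0.00069. The estimates of 14 genes changed sign when a line was left out, and their lowest and highest values were NOC2L -0.0064 to 0.10, RRN3 -0.0068 to 0.12, UTP25 -0.055 to 0.033, GNL3L -0.032 to 0.061, NOL6 -0.065 to 0.015, POLR2D -0.055 to 0.077, RRP36 -0.0038 to 0.10, RRP7A -0.0055 to 0.14, NOC2LP2 -0.069 to 0.092, NOL4L-DT -0.16 to 0.072, POLR3B -0.014 to 0.041, GNL2 -0.092 to 0.015, NOLC1 -0.079 to 0.0076 and POLR2G -0.10 to 0.019. Values of the other sign between these bounds were -0.0022 for NOC2L and -0.0031 for RRN3 (both without KMS11), 0.021 for UTP25 (without KMS11), and -0.014 for NOC2LP2 and 0.0055 for NOL4L-DT (both without KMS34). The cause was not tested. The F test between lines was not run without the block or with a random block, since it tests the block. With 4 pairs of arrays the standard errors were 0.060 to 0.10, and a difference well above its standard error can still go uncalled. POLR3GL, at 0.23, had a limma adjusted p of 0.417. Genes under the brightness limit were not tested.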
